A study of Sus scrofa with 8 samples.

Results

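The scaffold of the thick filament was examined in pig skeletal muscle through 5 genes: MYBPC1, MYBPC2, TTN, MYOM1 and MYOM2. The members were all spots whose only gene symbol in the platform annotation is one of these 5, which gave 38 of the 9984 spots on the array, or 5 of 2922 named genes. MYBPC1 had 8 spots, MYBPC2 had 4, TTN had 22, MYOM1 had 2 and MYOM2 had 2. Muscle RNA of pigs fed a high energy diet was hybridised in competition with muscle RNA of pigs fed a low energy diet, which served as the reference, on 8 arrays with 2 dyes. The arrays form 4 couples of samples, each run with the high energy sample in dye 5 and again with the dyes swapped. High energy sample 40 met low energy sample 49 in couple 1 and low energy sample 142 in couple 3, high energy sample 41 met low energy sample 61 in couple 2, and high energy sample ae met low energy sample be in couple 4. The labels give no breed, age, sex, muscle, feeding time or pooling, and do not expand the letters of couple 4. The 2 arrays of each couple repeat 1 comparison of RNAs, and their mean is 1 replicate; n is thus at most 4 couples, and p-values measure the spread between couples, which may be partly technical.

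In a sarcomere, titin spans from the Z-disc to the M-band and acts as a spring and a ruler for the thick filament. Myosin-binding protein C sits in stripes along the thick filament and tunes how myosin heads meet actin, with MYBPC1 encoding the slow type and MYBPC2 the fast type in skeletal muscle. Myomesins cross-link neighbouring thick filaments at the M-band, MYOM1 encoding myomesin and MYOM2 the M-protein, which is known from fast fibres. In a piece of muscle, a change of fibre type makeup and a change of RNA per fibre cannot be told apart.

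Values are log2 ratios, with each array centred on its median. Channel 2 is labelled high energy and channel 1 low energy on every array, which makes a ratio of high to low energy likely, though no file states its direction. A turned value therefore stands beside each gene's ratio, computed with opposite signs for the 2 dye orientations. It is the diet ratio if the files held one dye over the other, and the dye effect otherwise. The number of a spot is its row in the array. Named spots lie in neighbouring pairs of 1 symbol (3305 of 3305 such pairs), so the 38 spots form 19 pairs. Values were present for 77.6% to 94.4% of spots per array, and for 291 of the 304 possible values of the members. The number of arrays limits the precision, and the spread of an array's ratios differed, with an SD of 0.341 to 0.724. The deposited ratios hold no level, but most are logarithms of a ratio of whole numbers, and the larger of these in lowest terms, the recovered signal, is a lower bound on brightness where it is under 5000 and gives no level above that. Its median was 721 over the members' values, against 446 over all spots. Over 4 of the marker genes of blood, 4 of fibroblasts, 3 of adipocytes, 3 of vessels, 1 of immune cells and 1 of nerve that were tested, 0 passed, and their median log2 ratios were -0.0018, 0.12, 0.04, 0.19, -0.34 and 0.37 in that order. Their part in the results below was not tested.

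MYBPC1 was below 0 in every couple. With high energy in dye 5, MYBPC1 had log2 ratios of -0.35, -0.40, -0.51 and 0.03 in couples 1 to 4, and with high energy in dye 3 it had -0.16, -0.28, -0.34 and -0.50. It was thus below 0 on 7 of 8 arrays, and the couple means were -0.25, -0.34, -0.43 and -0.24. The ratio over couples was -0.31 ± 0.091 (limma's SE, n = 4; turned 0.02), or 1.24-fold lower with the high energy diet. Without values of low recovered signal MYBPC1 came to -0.22 ± 0.097 (limma's SE, n = 4). As the median of its spots it came to -0.25 ± 0.11 (limma's SE, n = 4). In limma's test of the first of these ratios across all 5025 features, the adjusted p of MYBPC1 was 0.996. Its unadjusted p of 0.0169 ranked 50th. It was 1 of 5 members below 0 at an unadjusted p under 0.05, where 2.41% of all features stood (3.78% in either direction), and 0 of 5 members passed after adjustment, where 0% of all features did. At an unadjusted p under 0.05 stood 190 of the 5025 features.

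**Figure D1:**
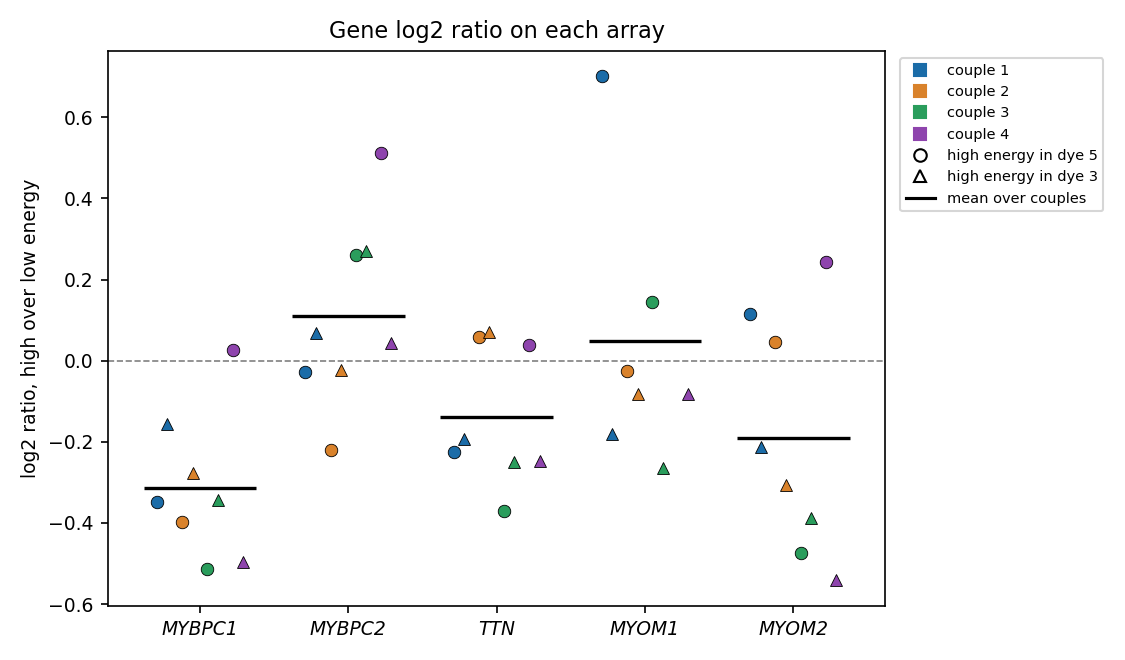
Log2 ratio of high over low energy muscle for each of the 5 genes (spots of a gene averaged) on each array. Colours are couples, circles have high energy in dye 5, triangles in dye 3, and bars are means over couples. MYBPC1 lay below 0 on 7 of 8 arrays, and all 4 triangles but only 1 of the 4 circles of MYOM2 lay below 0.

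The 4 spot pairs of MYBPC1 differed. Spots 3369 and 3370 had a mean ratio of -0.74 ± 0.34 (SD, n = 4 couples) and were below 0 in 16 of 16 values. Spots 2883 and 2884 had -0.44 ± 0.35 (SD, n = 4) and were also below 0 in 16 of 16 values. Spots 3655 and 3656 had -0.16 ± 0.22 (SD, n = 4), with 10 of 13 values below 0. Spots 101 and 102 had 0.10 ± 0.075 (SD, n = 4), with 7 of 16 values below 0; its arrays ranged from -0.31 to 0.64, both ends in couple 4. The first of these pairs was low in every couple, and the last was slightly above 0 in every couple.

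The pairs that were low differed in where they were low. Spots 3369 and 3370 had couple means of -0.33, -1.05, -0.58 and -1.0 in couples 1 to 4, so they were lowest in couples 2 and 4. Spots 2883 and 2884 had -0.50, -0.17, -0.91 and -0.17, so they were lowest in couples 1 and 3. Over couples 2 and 4, spots 3369 and 3370 had the 4th lowest mean (turned 0.18, rank 2766) of the 3153 pairs measured on all arrays. In couple 2 that mean came mostly from 1 spot of the pair, since spot 3369 had -2.37 and -1.49 on the 2 arrays and spot 3370 had -0.01 and -0.33. In couple 4 both spots had low values with high energy in dye 3, at -1.54 and -1.48. Without spot 3369, MYBPC1 as a whole came to -0.20, with couple values of -0.25, -0.10, -0.41 and -0.13. That exclusion was chosen after the values were seen.

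The MYBPC1 pairs also differed in recovered signal. The median recovered signal was 13017 for spots 101 and 102, against 678.5 for spots 2883 and 2884, 396.5 for spots 3369 and 3370 and 245 for spots 3655 and 3656. Of the 16 recovered values of the first pair, 12 exceed 5000. The files give no clone or probe position for the spots, so it was not tested whether the pairs read different stretches of the transcript, nor how a human probe binds pig MYBPC1 and its paralogs.

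MYBPC2, the fast paralog, had log2 ratios of -0.03, -0.22, 0.26 and 0.51 in couples 1 to 4 with high energy in dye 5. With high energy in dye 3 it had 0.07, -0.02, 0.27 and 0.04. The arrays lay on both sides of 0, with couples 3 and 4 above 0 on both of their arrays and couple 2 below 0 on both. Its ratio was 0.10 ± 0.12 (limma's SE, n = 4; turned 0.03; adjusted p = 0.996). One pair, spots 3279 and 3280, held close to 0 on all arrays, between -0.09 and 0.07, with a mean of 0.01 ± 0.046 (SD, n = 4). The other pair, spots 2299 and 2300, ranged over arrays from -0.49 to 1.02 and had 0.21 ± 0.37 (SD, n = 4). The median recovered signal was 6765 for spots 3279 and 3280, and 383 for spots 2299 and 2300.

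With all spots averaged, MYBPC1 lay below MYBPC2 in every couple. The difference of their log2 ratios, MYBPC1 minus MYBPC2, was -0.27, -0.22, -0.69 and -0.51 in couples 1 to 4, with a mean of -0.42 ± 0.22 (SD, n = 4). An exact two-sided sign-flip permutation test over 4 couples cannot give a p under 1/8, and this difference gave that smallest value (adjusted p = 0.357 over the 10 pairs of members). The test treats the couples as independent, which couples 1 and 3 are not, since they share high energy sample 40. With those averaged to 1 unit, 3 units were left and the exact permutation p was 0.25, the smallest that 3 units allow (adjusted p = 0.63). MYBPC1 minus MYBPC2 came to -0.345 without values of low recovered signal. Without spot 3369 the order did not hold in couple 2, where MYBPC1 had -0.096 and MYBPC2 had -0.12. In the pairs of highest median recovered signal, the means were 0.10 for MYBPC1 and 0.01 for MYBPC2. MYBPC1 minus TTN was below 0 in 4 of 4 couples, at -0.17 ± 0.16 (SD), and came to -0.098 without couple 2 and -0.083 without values of low recovered signal. MYBPC1 minus MYOM1 was below 0 in 3 of 3 couples, at -0.39 ± 0.12 (SD), and came to -0.20 without values of low recovered signal. MYBPC2 minus MYOM2 was above 0 in 4 of 4 couples, at 0.30 ± 0.32 (SD), and 0.17 without couple 3. No pair of members passed this exact permutation test after adjustment, the lowest adjusted p being 0.357, and the design could not have made one pass.

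TTN as a whole had small ratios that differed between couples. With high energy in dye 5 its log2 ratios were -0.22, 0.06, -0.37 and 0.04 in couples 1 to 4, and with high energy in dye 3 they were -0.19, 0.07, -0.25 and -0.25. Couples 1 and 3, which share high energy sample 40, were below 0 on all 4 of their arrays, and couple 2 was above 0 on both. The ratio was -0.12 ± 0.10 (limma's SE, n = 4; turned 0.03; adjusted p = 0.996). Without couple 2 it was -0.19. Of the 22 titin spots, 20 had a mean over arrays below 0, against 5050 of all 9984 spots, but 101 of their 170 single values were below 0, so most spots lay only slightly below it.

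The low titin values were concentrated in 2 of the 11 spot pairs, and in couples 1 and 3. Spots 2859 and 2860 had couple means of -1.05 and -1.40 in couples 1 and 3, and 0.14 and -0.04 in couples 2 and 4. Single values of spot 2859 were -1.14 and -0.94 in couple 1, -2.19 and -1.07 in couple 3, -0.18 and 0.30 in couple 2, and 0.04 and 0.09 in couple 4, each with high energy in dye 5 and then in dye 3. Its neighbour, spot 2860, had -1.04 and -1.07 in couple 1 and -1.89 and -0.45 in couple 3. All 8 values of the pair in the couples with sample 40 were thus below every value it had in the other couples, of which the lowest was -0.37.

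Spots 5917 and 5918 followed the same course with smaller values. Their couple means were -0.73 and -0.79 in couples 1 and 3, and 0.07 and -0.18 in couples 2 and 4. On single arrays the pair had -0.93 and -0.54 in couple 1, -0.37 and -1.21 in couple 3, 0.22 and -0.08 in couple 2 and -0.14 and -0.23 in couple 4. The lowest array of couples 2 and 4 therefore lay above every array of couples 1 and 3. Without these 4 spots TTN had a ratio of -0.05, with couple values of -0.05, 0.06, -0.12 and -0.10, which was also looked at only after the values were seen.

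**Figure D2:**
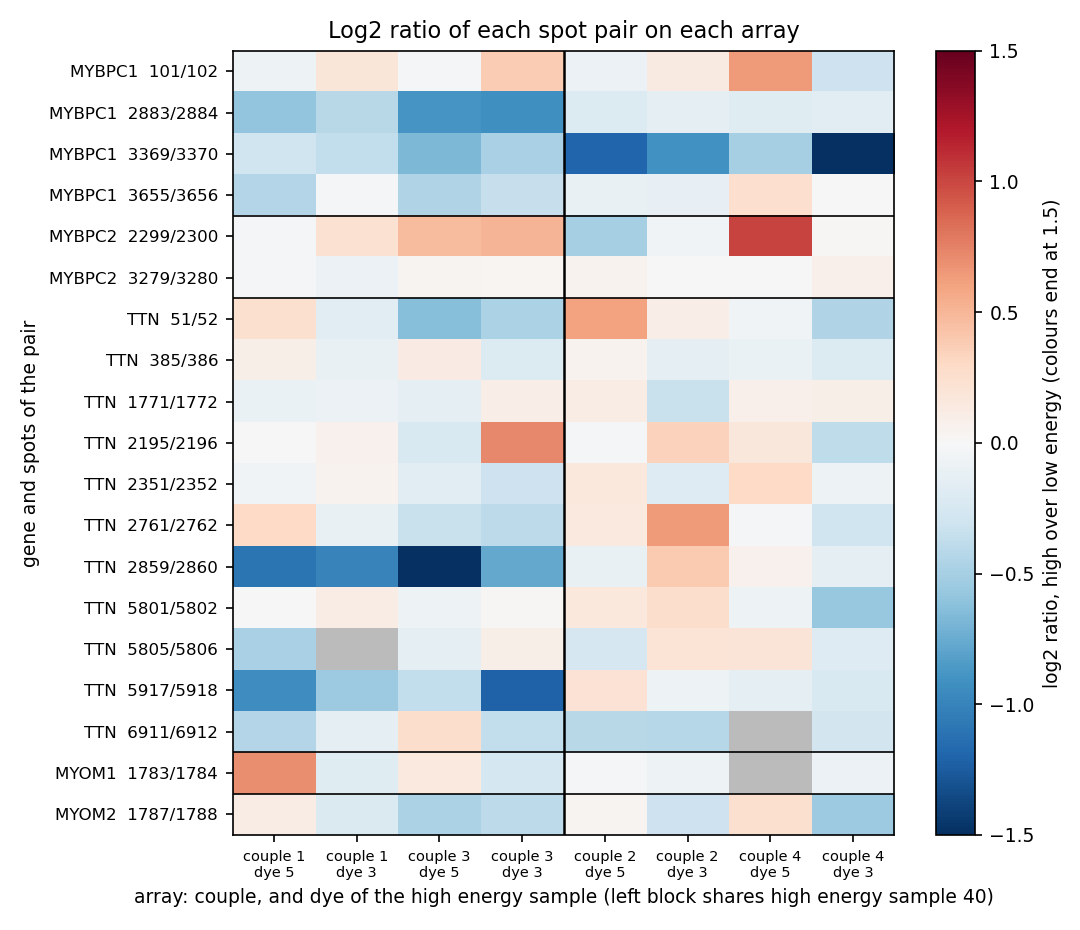
Log2 ratio of high over low energy muscle for the 19 spot pairs (rows, mean of the 2 spots) on the 8 arrays (columns). Blue is below 0, red above 0, grey not measured, and colours end at 1.5 on either side. The 4 columns on the left are the couples that share high energy sample 40, in which TTN spots 2859/2860 and 5917/5918 and MYBPC1 spots 2883/2884 were low with both dye orientations.

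The other 9 titin pairs had means over couples between -0.26 and 0.08. Spots 385 and 386, with a median recovered signal of 11162, had -0.06 ± 0.063 (SD, n = 4) and ranged from -0.21 to 0.13 over arrays. Spots 51 and 52 had 0.04, 0.35, -0.56 and -0.26 in couples 1 to 4, and spots 2761 and 2762 had 0.09, 0.39, -0.36 and -0.16. Both of these pairs were high in couple 2 and low in couple 3, and in couple 1 they did not share the low values of spots 2859 and 2860. The annotation lists 4 titin transcripts for 18 of the 22 spots. It lists 5 for spots 5801 and 5802, which had -0.02 ± 0.22 (SD, n = 4). For spots 6911 and 6912 it lists 1 transcript only, and this pair had -0.26 ± 0.18 in 3 couples (SD, n = 3), with 6 of 7 arrays below 0.

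Set against all pairs of spots on the array, a few member pairs stood near the low end if the ratios are high over low energy. Of the 3153 pairs measured in all couples, spots 2859 and 2860 of TTN had the 2nd lowest mean over couples 1 and 3, at -1.23, against 0.05 over couples 2 and 4. Spots 5917 and 5918 ranked 16th, with -0.76 against -0.06, and MYBPC1 spots 2883 and 2884 ranked 20th, with -0.70 against -0.17. The medians of all pairs were -0.0004 over couples 1 and 3 and -0.0071 over couples 2 and 4. With the sign of 1 dye orientation turned, the means over couples 1 and 3 were -0.34 (rank 91), 0.11 (rank 2532) and -0.04 (rank 1287) for these pairs in the same order. These ranks were looked up after the values were seen and carry no test. Couples 1 and 3 share 1 high energy sample, so whatever belongs to that sample, its pig or its RNA cannot be told apart from the diet in them. Below 0 on all 8 arrays were 2 of the 16 member pairs measured on all arrays, both of them MYBPC1, where 1.46% of all pairs stood.

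**Figure D3:**
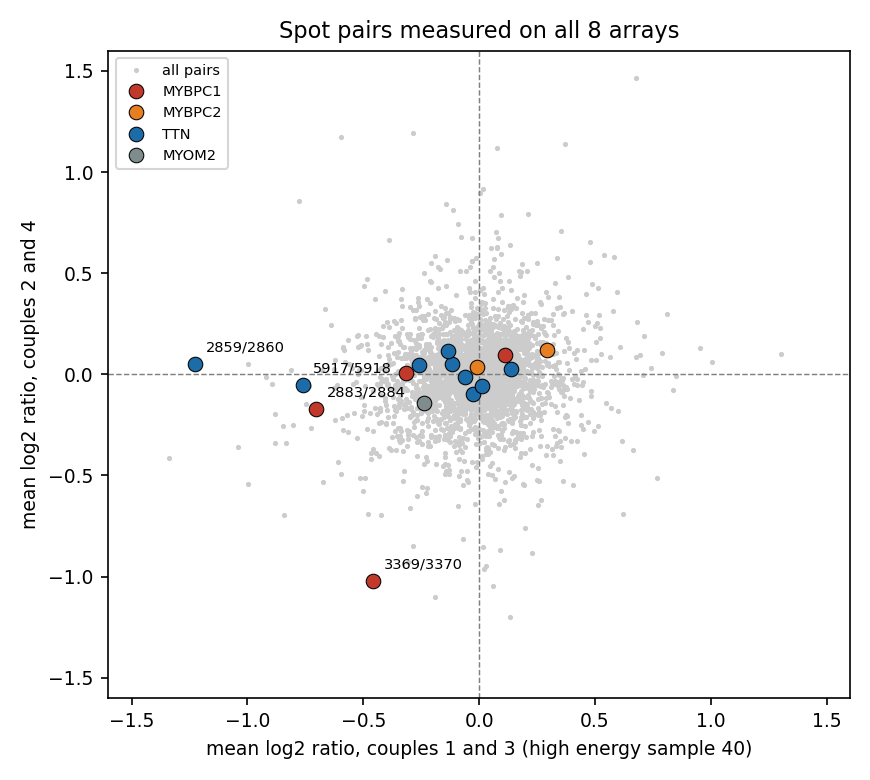
Mean log2 ratio over couples 1 and 3, which share high energy sample 40 (horizontal), and over couples 2 and 4 (vertical), for every spot pair measured on all 8 arrays. Grey dots are all 3153 pairs, of which 2 lie outside the axes, coloured dots are member pairs, and labels give the spots of member pairs that ranked among the 100 lowest of either mean. TTN spots 2859/2860 lay at -1.23 and 0.05, and MYBPC1 spots 3369/3370 at -0.46 and -1.02.

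Ratios of the members repeated between the arrays of a couple more than ratios on the array in general did, as a description across pairs that share their arrays and are not independent. Between the dye orientations, Pearson's r over the member pairs was 0.64, 0.56, 0.56 and 0.50 in couples 1 to 4 (17 to 19 pairs), against 0.08, -0.02, 0.03 and -0.03 over all pairs. Between the 2 spots of a pair on an array, r was 0.50 over 142 values of members and 0.10 over 33164 values of all pairs. All pairs include spots with no symbol, and the median recovered signal was 446 over all spots, against 721 over the members. Between couples 1 and 3, r was 0.81 over 18 member pairs, against 0.10 over all pairs. That r includes TTN spots 2859/2860 and 5917/5918 and MYBPC1 spots 2883/2884, the lowest member pairs in both couples. It was not computed without them. For the other pairs of couples it lay between -0.02 and 0.42 over member pairs. The 24 spots on each side of a member pair had array medians between -0.26 and 0.14, and those around spots 2859 and 2860 lay between -0.10 and 0.08.

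The ratios of the M-band genes differed between the dye orientations, but neither turned value passed limma's test after adjustment. MYOM2 had log2 ratios of 0.12, 0.05, -0.47 and 0.24 in couples 1 to 4 with high energy in dye 5. With high energy in dye 3 it had -0.21, -0.31, -0.39 and -0.54. All 4 arrays of that orientation were below 0, and 1 of 4 arrays of the other was. Its ratio was -0.18 ± 0.12 (limma's SE, n = 4; adjusted p = 0.996), and the turned value was as large, 0.20 ± 0.11 (limma's SE; adjusted p = 0.998). With high energy in dye 5 alone the ratio was 0.02 in limma, which weights couples 1 and 3 less. The plain mean of those 4 arrays was -0.02. Its 2 spots lay up to 1.88 apart on an array: spot 1787 had 0.40 in couple 4 with high energy in dye 3, where spot 1788 had -1.48.

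MYOM1 was measured with both orientations in couples 1 to 3. It had 0.70, -0.03 and 0.14 in those couples with high energy in dye 5, and -0.18, -0.08 and -0.26 with high energy in dye 3. In couple 4 a single value of -0.08 was present, with high energy in dye 3, and it did not enter the fit. The 4 values with high energy in dye 3 were below 0. The turned value was 0.20 ± 0.14 (limma's SE), and the ratio was 0.03 ± 0.15 (limma's SE, n = 3 couples, adjusted p = 0.996). With high energy in dye 3 alone it was -0.14, and without couple 1 it was -0.06. The median recovered signal was 236.5 for MYOM1 and 287.5 for MYOM2.

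**Figure D4:**
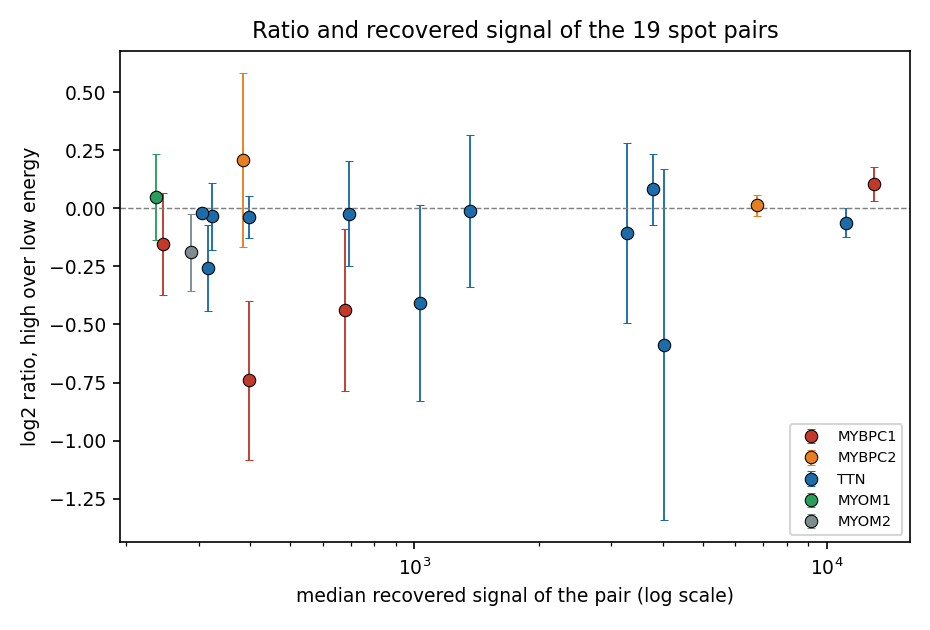
Mean log2 ratio over couples (vertical, bars are SD over 3 or 4 couples) against the median recovered signal of the pair (horizontal, log scale) for the 19 spot pairs. The 3 pairs with a median recovered signal above 5000 had means of 0.10, 0.01 and -0.06, and the 2 lowest means, -0.74 and -0.59, belonged to pairs at 396.5 and 4025.5.

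Among the 16 member pairs measured in all couples, the 3 with a median recovered signal above 5000 had the smallest spread over couples, with SDs of 0.075, 0.046 and 0.063. These were MYBPC1 spots 101 and 102, MYBPC2 spots 3279 and 3280, and TTN spots 385 and 386. TTN spots 5805 and 5806, complete in 3 couples only, had a smaller SD of 0.012 at a median recovered signal of 306. Above 5000 the recovered signal gives no level. Of the low pairs, TTN spots 2859 and 2860 had a median recovered signal of 4025.5, and the other 4 with a mean under -0.2 had 316.5 to 1032. The part of brightness in these ratios was not tested.

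Other genes of the thick filament and of titin's partners were set beside the members. Of 8 tested genes of myosin heavy chains, light chains and their kinase, 6 were below 0 and 0 passed, with a median log2 ratio of -0.02, where the median over all features was -0.01 and 53.6% of features were below 0. Turned, 3 of these 8 genes were below 0, where 52.6% of all features were. MYL1, a fast light chain, had 0.37 ± 0.10 (limma's SE; turned -0.04; adjusted p = 0.996). MYH7, the slow heavy chain, had -0.14 ± 0.081 (limma's SE; turned -0.13), and MYH1, a fast heavy chain, had -0.17 ± 0.11 (limma's SE; turned 0.06).

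Of 15 tested partners of titin and the M-band, 10 were above 0, where 46.4% of all features were, and 0 passed, with a median of 0.06. Turned, 7 of the 15 were above 0, with a median of -0.03. SQSTM1, an autophagy receptor in the signalling complex at titin's kinase domain, had 0.31 ± 0.13 (limma's SE; turned -0.23). TRIM55, a ubiquitin ligase of the same signalling complex, had 0.36 ± 0.16 (limma's SE), and its turned value was as large, 0.38 ± 0.32 (limma's SE). ANKRD2, a stretch-responsive partner of titin, had 0.15 ± 0.083 (limma's SE; turned -0.07).

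Genes of the slow and the fast fibre program were set beside MYBPC1 and MYBPC2. Of 10 tested slow fibre genes, 10 were below 0 with a median of -0.09, where 53.6% of all features were below 0. Some lay within their limma SE of 0: MYL3 at -0.021 ± 0.081, TNNC1 at -0.014 ± 0.083 and MYL2 at -0.015 ± 0.10. CASQ2 at -0.042 ± 0.092 and ATP2A2 at -0.078 ± 0.19 did too. The fibre lists were chosen with earlier results of these data known. In the fast list 7 of 11 tested genes were above 0 with a median of 0.06, where 46.4% of all features were above 0. Turned, 5 of the 10 slow and 6 of the 11 fast genes were below 0, with medians of -0.0029 and -0.0035, so neither share held in that direction. In both lists 0 genes passed after adjustment. The slow list had 2 genes at an unadjusted p under 0.05, both below 0: MB, myoglobin, at -0.32 ± 0.10 (limma's SE; turned 0.22), and TNNT1, slow troponin T, at -0.21 ± 0.080 (limma's SE; turned -0.05). TNNI1, slow troponin I, had -0.21 ± 0.10 (limma's SE; turned 0.08), but -0.043 without values of low recovered signal. MB likewise came to -0.18 as the median of its spots and -0.099 with high energy in dye 5 alone. TPM1, a tropomyosin, had 0.24 ± 0.11 (limma's SE; turned 0.04). The fast list had 1 such gene, MYL1, given above.

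Over the 8 arrays, the genes whose ratios followed a member most closely were not its thick filament partners. Likeness was Pearson's r of the log2 ratio over 8 arrays among 1928 genes, where the 2 arrays of a couple share their RNAs, and the highest of so many values is a description. For MYBPC1 the nearest were PPP1R1A at 0.95, SRM at 0.93 and CACNA1S at 0.93. For MYBPC2 they were TMEM176B, ATOX1 and ZFYVE27, each at 0.84. For TTN they were RPS25 at 0.90, PTGES2 at 0.89 and PTGDS at 0.87. For MYOM2 they were RPL30 at 0.90, CACNB1 at 0.89 and AKAP12 at 0.89. Pearson's r does not compare the level of the ratios. Over couples PPP1R1A, SRM and CACNA1S had log2 ratios of -0.02, 0.12 and 0.07, against -0.31 for MYBPC1. RPS25, PTGES2 and PTGDS had 0.18, -0.04 and -0.004, against -0.12 for TTN. RPL30, CACNB1 and AKAP12 had 0.05, 0.14 and 0.06, against -0.18 for MYOM2. Among members, r was 0.64 between MYBPC1 and MYOM2, 0.58 between TTN and MYOM2, 0.54 between MYBPC1 and TTN and 0.47 between MYBPC1 and MYBPC2, and it was -0.19 between MYBPC2 and TTN.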

How the data were processed

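Per the series' design text, muscle RNA was labelled with Cy3 and Cy5 and hybridised competitively. The scanner was a ScanArray LITE. The deposited values are log2 ratios of an array's 2 channels, already centred near 0 (array medians -0.0071 to 0.0115). The base was inferred: per array, 6.89% to 20.8% of values equal the base 2 logarithm of a simple fraction (denominator at most 60), against at most 2.26% for base e or 10. How signals were background-corrected, filtered and normalized was not given in the sources used here.

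Arrays were centred on their medians, spots of 1 symbol averaged, and the dye orientations of a couple averaged. A feature was tested with at least 3 complete couples. The test was limma 3.58.1 (R 4.3.3), two-sided, blocked on the high energy sample (assumed correlation 0.5), and Benjamini-Hochberg adjustment across all genes and unnamed spots. limma weights couples 1 and 3 less because they share a sample. The method was tested on simulated data drawn with the same correlation of 0.5, so that assumption was not checked.

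Symbols come from the human platform annotation; 5 of 5 members also occur in the pig tables, and no coordinates were used. Named genes were each member, the 3 genes nearest to it in r, and in each list the genes at an unadjusted p under 0.05 and up to 3 with the smallest p. The members and lists were chosen with earlier results of these data known. The pairing of arrays into couples comes from the sample names in the labels. Alternatives are given in the closing section.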

Additional observations from a re-analysis of the deposited data

Results flagged for a closer look

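Of 29 sets of values of the members searched for a value standing apart from the others, 1 had one, and chance flags about 1 in 20. MYBPC2 spots 3279 and 3280 had a log2 ratio of -0.0563 in couple 1, and the other 3 couples lay between 0.0285 and 0.0399. The gap is small, and this was the tightest MYBPC2 pair.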

How the results depend on the processing

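In limma, 0 features passed the adjusted threshold under any alternative run. The smallest limma adjusted p lay at 0.0553 in the fit of all 8 arrays and higher in the others, up to 0.9997. Unadjusted, 190 features had a p under 0.05, and 310 with independent couples. The count was 353 in the fit of all 8 arrays with the couple as replicate block, and 108 with high energy in dye 5 alone. It was 108 (without couple 2) to 305 (without couple 3) when 1 couple was left out. The replicate block had an estimated correlation of -0.036, so the 2 arrays of a couple counted nearly as independent replicates there. That fit gave MYBPC1 -0.31 and changed no call. MYBPC1 shrank to -0.22 without values of low recovered signal and to -0.25 as the median of its spots. MYBPC1 lay between -0.34 and -0.28 without 1 couple, TTN between -0.19 and -0.083, MYOM2 between -0.24 and -0.11 (without couple 3), MYBPC2 between 0.029 (without couple 4) and 0.20 (without couple 2), and MYOM1 between -0.057 (without couple 1) and 0.10. Turned values reversed the sign of MYBPC1 (0.024), TTN (0.026), MYOM2 (0.20), MYL1 (-0.036), MYH1 (0.060), MB (0.22), TNNI1 (0.078), SQSTM1 (-0.23) and ANKRD2 (-0.069). High energy in dye 3 alone reversed MYOM1 (-0.14) and TRIM55 (-0.024), and single orientations MYOM1 (-0.0011). High energy in dye 5 alone gave MYOM2 0.015 in limma, but the plain mean of those arrays kept its sign (-0.017). Of the differences between members, MYBPC1 minus MYOM2 reversed without values of low recovered signal (0.055) and with dye 3 alone (0.044), MYBPC2 minus MYOM1 with scaled arrays (-0.013), with dye 5 alone (-0.27) and over -0.15 to 0.13 without 1 couple, and TTN minus MYOM2 with dye 5 alone (-0.11). The cause of these reversals was not tested. Other settings kept the sign of each member that they tested. MYOM1 was not tested without values of low recovered signal, with couples 1 and 3 averaged, or with all 4 couples required. Its spot pair had a mean of -0.057 over the couples left without values of low recovered signal. MYOM1 was 0.099 after quantile normalization and 0.23 with dye 5 alone, and MYOM2 was -0.37 with dye 3 alone. MYBPC1 without spot 3369, TTN without its 2 lowest pairs, differences with couples 1 and 3 averaged, and turned ranks and shares were added after seeing the data.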
